A study of Homo sapiens with 10 samples.

Results

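The small subunit ribosomal proteins are the proteins that, with 18S ribosomal RNA, make up the 40S subunit of the cytoplasmic ribosome. Members were the genes present in both expression tables whose symbol is RPS followed by digits, with an optional final A or X, together with RPSA and FAU, and there were 30 of them among 11258 genes listed in both tables. RPS6 kinases and RPS27L were left out. The cells were BJ fibroblasts, a human primary line immortalized with hTERT, grown in serum-supplemented medium. They were left untreated (control) or treated with nutlin-3a, which blocks MDM2 and so stabilises p53, for 2, 4, 6 or 19 h. At each of these 5 times RNA-Seq measured poly(A) RNA and Ribo-Seq measured the 30 to 33 nucleotide fragments that ribosomes protect after cycloheximide. Each group was 1 library, 10 libraries in all, so none of the differences can be set against replicate error and no p-value is given.

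The 40S subunit binds the mRNA, scans for the start codon and holds the decoding site. Its proteins can be grouped by position, on the head or on the body and platform, and each is present in a single copy per ribosome, so that they are needed in equal amounts. Most mRNAs of vertebrate ribosomal proteins begin with a C followed by a run of pyrimidines, the terminal oligopyrimidine (TOP) tract, and are loaded with ribosomes or held back according to mTORC1 activity, with LARP1 as a binder of the tract. In fibroblasts this is a class of very abundant mRNAs, and several of its proteins can bind MDM2.

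RNA and ribosome density are given in FPKM (fragments per kilobase of transcript, scaled to library depth), and translational efficiency (TE) is their ratio, density over RNA, on a log2 scale. Changes are log2 differences from the control library. An error written ± is the counting standard error of a change, from read numbers worked back from the steps between FPKM values, and such errors and intervals cover counting only, not the variation between cultures or PCR copies. All 30 members were among the 7015 genes tested, which reached 5 FPKM in 1 or more libraries of both assays. Library totals recovered in this way were 23845562 to 27554290 reads for RNA-Seq and 7744900 to 14460727 for Ribo-Seq, the smallest being Ribo-Seq at 19 h. All 12 fibroblast markers examined stood at 10 FPKM or more in RNA, and the epithelial, immune and endothelial markers listed (3, 2 and 1 genes) stayed below 1 FPKM. CDKN1A, a p53 target, rose in RNA from 68.6 FPKM in control to 212, 915, 1204 and 1316 FPKM. TE over all tested genes had a median change of 0.18 at 4 h, and density one of 0.10 at 4 h and -0.19 at 19 h, so member changes at those times are also read against these shifts. The study describes an effect of the sequencing run and states that conditions were compared with a control of the same run, and its sample list holds the 6 and 19 h libraries. In that list, the Ribo-Seq libraries at 6 and 19 h and their control had smaller shares of reads in coding sequence and in the codon frame than the other Ribo-Seq libraries. The share in coding sequence was higher at 6 h than in that control. What this contributes to the density and TE values was not tested. For 2 and 4 h no run is given in the sources used here, so run and time point cannot be told apart at these times.

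The Ribo-Seq libraries at 2, 6 and 19 h stood apart from those of the control and 4 h in the genes of large matrix proteins. TE changes at 2, 4, 6 and 19 h were 1.85, 0.15, 2.07 and 1.91 for COL6A3 and 1.73, 0.32, 2.04 and 1.65 for FN1, which were chosen after their values were seen. Over all tested genes the TE change per doubling of transcript length was 0.10, -0.02, 0.17 and 0.15 at the same times. The members have short transcripts and their median TE change was below 0 in the same 3 libraries, and the part of this pattern in their values was not tested beyond the removal of the length trend. With that trend removed, the median was 0.03, 0.09, -0.69 and -1.07. Against the 2 h library in place of the control, it was -0.87 at 6 h and -1.20 at 19 h.

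Most annotated starts of these genes carry the tract by which the class is known. The windows below, 10 bases before and 20 after the RefSeq start (GRCh38.p14, gene strand, 5′ to 3′), cover members with large and small TE changes and some with a named role. RPS15A and RPS2 had no usable RefSeq window, and RPS27A, with 3 annotated starts, is not shown. Capitals mark the tract, defined as a C followed by at least 4 bases that are each C or T and starting within 10 bases of the annotated start. RPS4X at chrX:72277229-72277258 (minus strand) and RPS29 at chr14:49598691-49598720 (minus strand) have no capitals because these letters are not in their windows. The other positions are RPS24 chr10:78033853-78033882 (plus), RPS23 chr5:82278335-82278364 (minus), RPS18 chr6:33272065-33272094 (plus), RPS6 chr9:19380217-19380246 (minus), RPS27 chr1:153990752-153990781 (plus), RPS3 chr11:75399508-75399537 (plus), RPS19 chr19:41860245-41860274 (plus, the first of 2 annotated starts), RPS21 chr20:62387093-62387122 (plus), RPS28 chr19:8321486-8321515 (plus), FAU chr11:65122115-65122144 (minus), RPSA chr3:39406710-39406739 (plus) and RPS15 chr19:1438386-1438415 (plus).
RPS4X: ctccagccccaatttctacgcgcaccggaa
RPS24: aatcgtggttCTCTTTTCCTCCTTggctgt
RPS23: cggtgCTTCTCTCTTTCgctcaggcccgtg
RPS18: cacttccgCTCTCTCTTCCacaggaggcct
RPS6: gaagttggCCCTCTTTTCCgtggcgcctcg
RPS27: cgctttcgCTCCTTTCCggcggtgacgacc
RPS3: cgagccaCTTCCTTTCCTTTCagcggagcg
RPS19: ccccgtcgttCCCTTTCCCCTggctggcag
RPS29: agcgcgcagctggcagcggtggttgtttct
RPS21: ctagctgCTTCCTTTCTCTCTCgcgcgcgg
RPS28: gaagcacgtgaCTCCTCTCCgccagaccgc
FAU: tcgCTTCTTCCTCTTTCTCgactccatctt
RPSA: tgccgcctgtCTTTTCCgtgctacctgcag
RPS15: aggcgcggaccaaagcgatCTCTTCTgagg

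Of the 30 members, 24 matched the RefSeq promoter table, with 27 annotated starts between them. A tract lay in 25 of the 27 windows (92.6%), against 33.5% of the 35116 windows of all genes and 34.7% of the 7708 windows of tested genes. Tracts of 8 bases or more were in 74.1% of member windows and 9.17% of all windows. On the opposite strand, the same letters were found in 7.41% of member windows and 31.5% of all windows. The median tract was 10 bases long in the members and 6 bases over all windows that held one. For the large subunit proteins, the partner class, 39 of 50 windows held a tract.

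In untreated cells the small subunit mRNAs were among the most abundant and most densely translated. Median RNA over the members was 446 FPKM, at the 98.5th percentile of tested genes, and ranged from 56.0 FPKM for RPS29 to 1495 FPKM for RPS2. Median ribosome density was 977 FPKM, from 69.4 FPKM for RPSA to 1863 FPKM for RPS21. Together the 30 genes took 1.34% of RNA-Seq reads (95% Wilson interval 1.33 to 1.34%) and 2.33% of Ribo-Seq reads (2.33 to 2.34%). Their density to RNA ratio had a median of 1.98, against 0.830 for all tested genes, and was above 1 in 29 of 30 members, the exception being RPS2 at 0.743. RPS21, of the body and platform group, had the highest ratio in every library pair, at 10.3 in control. These levels depend on the transcript chosen to represent each gene: recovered lengths ran from 340 nt for RPS21 to 3437 nt for RPS23, with a median of 864 nt against 2601 nt for tested genes. Over the 30 members, log2 density in control and log2 length had a Pearson r of -0.75 (Spearman -0.81), where both come from the same FPKM values. The length cancels from the ratio where both tables use the same one, as found for 27 of the 29 members whose length could be recovered from each table alone. The ratio was not adjusted for the coding share of each transcript. RPS21 had the fewest RNA-Seq reads of the members in control, 1466 against a median of 9947, while RPSA with 1665 had a ratio of 1.03.

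**Figure D1:**
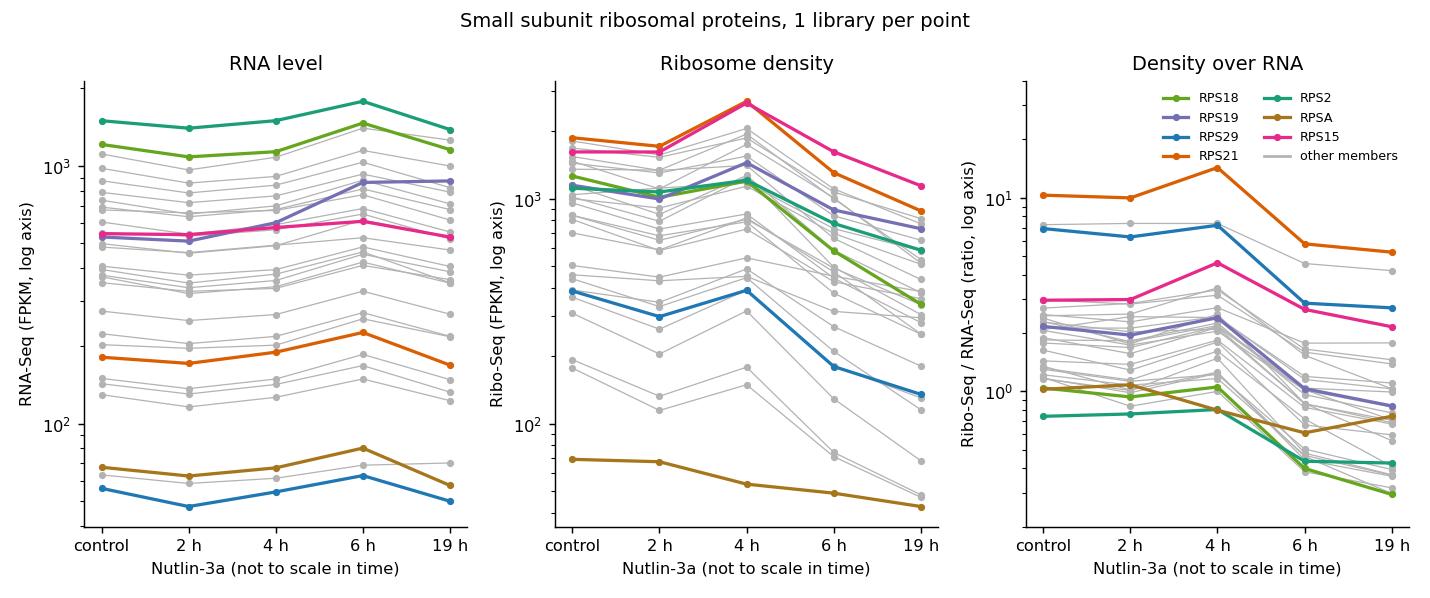
RNA level, ribosome density and their ratio of the 30 small subunit genes (y axes, FPKM or ratio, log scale) in the control and at 2, 4, 6 and 19 h of nutlin-3a, 1 library per point, with 7 genes in colour and the others in grey. RNA lines stay nearly level, density and ratio lines drop after 4 h, and RPS21 has the highest ratio throughout, 10.3 in control and 5.23 at 19 h.

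After nutlin-3a, RNA of the small subunit genes stayed within a narrow band while their ribosome density fell late. Median RNA changes were -0.13, -0.03, 0.24 and -0.04 at 2, 4, 6 and 19 h, against -0.05, -0.07, -0.002 and -0.07 over all tested genes. Density changed by medians of -0.23, 0.11, -0.74 and -1.33, and TE by -0.15, 0.12, -0.98 and -1.32. For all tested genes the TE medians were 0.04, 0.18, 0.002 and -0.07. The 2 h density median became 0.01 once the length trend was removed. Expressed as reads, the members took 2.33, 1.98, 2.57, 1.40 and 0.974% of Ribo-Seq reads in the control and at 2, 4, 6 and 19 h, and 1.34, 1.23, 1.31, 1.60 and 1.33% of RNA-Seq reads. The Ribo-Seq share was lowest at 19 h and highest at 4 h, and the RNA-Seq share was highest at 6 h. In bulk samples, fewer cells with a given RNA and less of it per cell cannot be told apart.

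No member reached a 2-fold RNA change at any time. Of the tested genes 0.941, 2.1, 7.14 and 9.59% did so at 2, 4, 6 and 19 h. TE was lower by 2-fold or more in 0, 0, 15 and 22 of the 30 members at 2, 4, 6 and 19 h. Over all tested genes 0.057, 0.128, 2.54 and 4.21% were. For density the counts were 0, 0, 11 and 22, against 0.128, 0.527, 8.04 and 14.9% of tested genes. At 6 and at 19 h TE of all 30 members was below control (29 of 30 at 6 h with the length trend removed), where 49.8 and 55.6% of tested genes were, each member by more than the 95% counting interval, and 14 and 21 of them were below 2-fold by more than that interval. With a sliding cut-off on local standard deviations, as the study describes, 11 members were lower at 6 h and 13 at 19 h, where 3.02 and 5.56% of tested genes were. Ranked by TE change, the 100 lowest of the 7015 tested genes held 11 members at 6 h and 15 at 19 h.

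**Figure D2:**
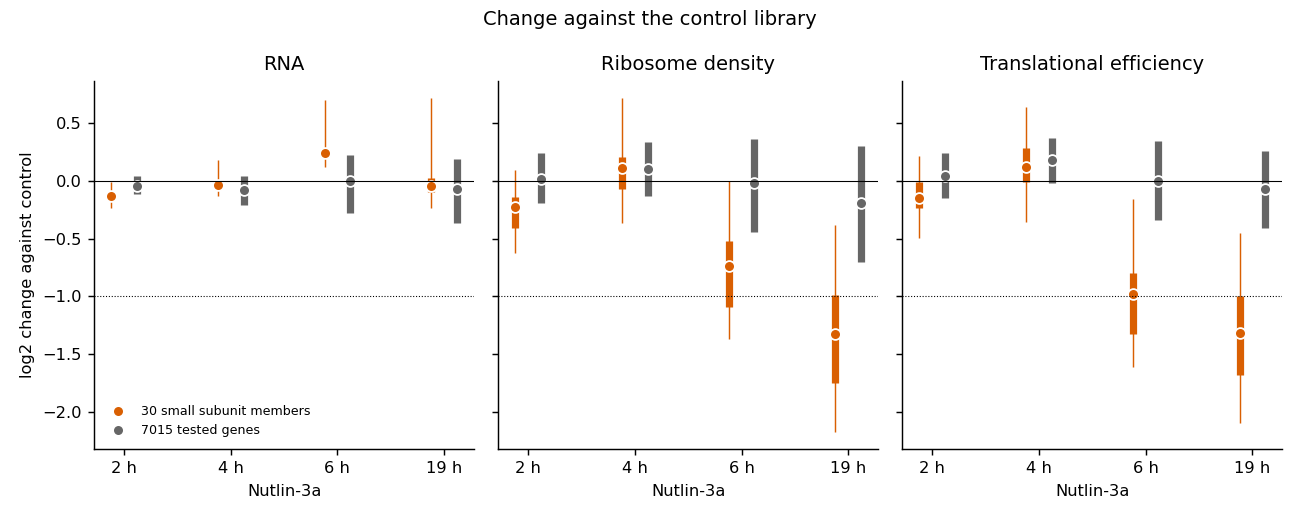
Log2 change against control (y axis) in RNA, ribosome density and TE at 2, 4, 6 and 19 h, for the 30 small subunit genes and for all 7015 tested genes. Points are medians, thick bars the interquartile range, and thin bars the full range of the members only. Member medians of TE reach -0.98 at 6 h and -1.32 at 19 h, while medians of all tested genes stay between -0.07 and 0.18, and the dotted line marks a 2-fold fall.

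TE of the members was higher at 4 h than at 2 h before it was lower at 6 h. Against control the member medians were -0.15 at 2 h and 0.12 at 4 h, or 0.03 and 0.09 with the length trend removed. The 4 h median was thus slightly nearer to control than the 2 h median as measured, and farther from control with the trend removed. From 2 to 4 h, TE was higher in 27 of 30 members (median step 0.27), where 64.9% of tested genes were higher. From 4 to 6 h it was lower in all 30 (median -1.19), where 68.1% of tested genes were lower, and 24 were lower by 2-fold or more, against 2.98% of tested genes. From 6 to 19 h it was lower in 28 (median -0.28), where 62.3% of tested genes were lower, and in none by 2-fold, against 0.57% of tested genes. Ribosome density was above control at 4 h in 20 of 30 members, where 61.4% of tested genes were. At 19 h density was below control in all 30, where 4217 of 7015 tested genes were. From 6 to 19 h density was lower in all 30, where 4876 of 7015 tested genes were lower. The 4 h median TE change against control, 0.12, became -0.06 once the median change of all tested genes was subtracted.

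RNA moved as a group by small amounts in both directions. At 2 h RNA was below control in all 30 members and at 6 h above control in all 30, where 64.5% of tested genes were below at 2 h and 49.7% above at 6 h. The 2 h change passed the counting interval in 27 members and the 6 h change in all 30. The 6 h direction held in all 30 members under every scaling tried, with medians of 0.16 to 0.38. The 2 h median stayed negative, at -0.08 with all-gene centring and -0.06 with the length trend removed, but 3 and 7 members then lay above 0. Small medians at 4 and 19 h had no settled sign, since they turned positive with the 2 h library as baseline (0.09 at both times) and with all-gene centring (0.04 and 0.02). From 2 to 4 h RNA was higher in all 30 members, where 3051 of 7015 tested genes were higher. From 4 to 6 h RNA was again higher in all 30, where 3902 of 7015 were. From 6 to 19 h RNA was lower in 28 members, where 4478 of 7015 tested genes were lower.

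Members differed in the size of their TE change. At 19 h TE changes ran from -2.10 for RPS15A to -0.45 for RPS15, with a standard deviation of 0.46 across members, against a median counting standard error of 0.041. The lowest were, in order, RPS15A, RPS4X, RPS24, RPS23, RPS18, RPS6, RPS3A, RPS27, RPS3 and RPS12, and the highest were RPS2, RPS28, FAU, RPSA and RPS15. Only 2 of the 29 gaps between neighbours in the order of all 30 exceeded the 95% counting interval of the gap, between RPS12 and RPS7 (0.19) and between RPS28 and FAU (0.30). The order thus had a break after RPS12 and another before the last 3 genes, and other neighbours could not be told apart by counting.

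**Figure D3:**
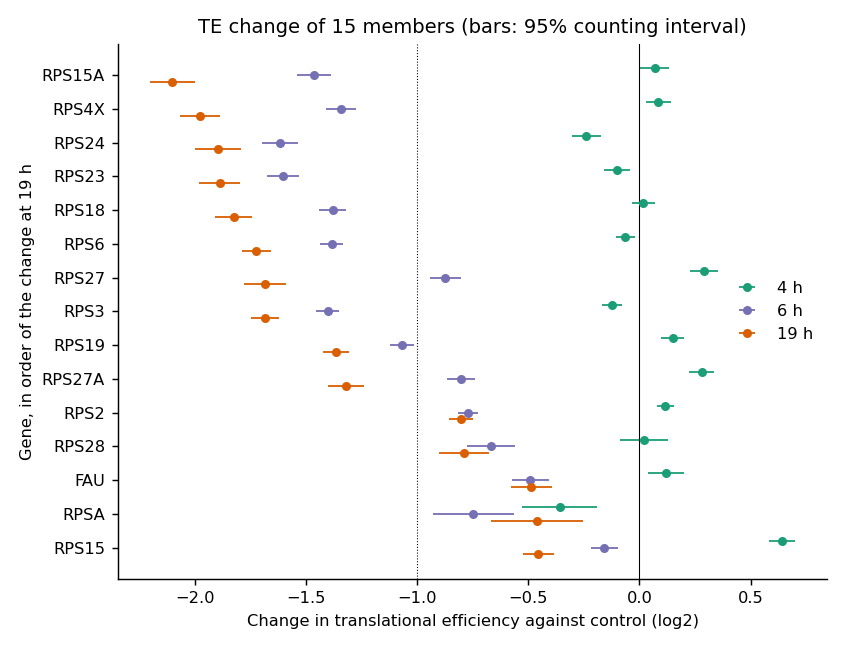
TE change against control (x axis, log2) of the 15 small subunit genes given with values in all libraries (y axis, ordered by the change at 19 h) at 4, 6 and 19 h, with 95% counting intervals as bars. Points at 4 h lie between -0.36 and 0.64, points at 6 and 19 h lie below 0 for every gene shown, and the range at 19 h is -2.10 to -0.45.

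Body and platform proteins, 18 of the 30 members, held the 4 lowest TE changes at 19 h. They also held some of the highest, those of RPS2, FAU and RPSA. RPS15A (ENSG00000134419), a body protein that binds 18S rRNA, had RNA of 129, 116, 126, 149 and 123 FPKM in the control and at 2, 4, 6 and 19 h. Its ribosome density was 309, 204, 317, 129 and 68.3 FPKM. Density thus dipped at 2 h, returned to the control level at 4 h and then fell, leaving TE at 0.233 of control at 19 h (log2 -2.10 ± 0.05). RPS4X (ENSG00000198034), the X-linked body protein whose start window has no tract, had RNA of 376, 336, 359, 453 and 388 FPKM. The corresponding densities were 440, 331, 445, 209 and 115 FPKM. Its ratio went from 1.17 in control to 0.297 at 19 h, with RNA slightly above control.

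RPS24 (ENSG00000138326), a body protein with a tract of 14 bases, had RNA of 150, 137, 149, 185 and 148 FPKM and density of 176, 114, 149, 71.3 and 47.0 FPKM in the 5 library pairs. RPS23 (ENSG00000186468), which lies at the decoding centre, had RNA of 143, 130, 142, 168 and 132 FPKM and density of 192, 132, 178, 74.5 and 48.3 FPKM. Both genes had density below control at every treated time, and their TE changes at 19 h (-1.89 ± 0.05 for each) differed by 0.007, within counting error. At 6 h RPS24 and RPS23 had the lowest TE changes of all members, at -1.62 and -1.60.

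RPS6 (ENSG00000137154), the protein phosphorylated by S6 kinases downstream of mTORC1, had RNA of 691, 634, 676, 813 and 676 FPKM. Its density was 842, 683, 788, 380 and 249 FPKM. RNA at 19 h was 0.978 of control while TE was 0.303 of control (log2 -1.72 ± 0.03). RPS27 (ENSG00000177954), a zinc-finger protein of the platform, had RNA of 1111, 963, 1078, 1398 and 1257 FPKM and density of 1465, 1103, 1741, 1008 and 516 FPKM. Its TE step from 6 to 19 h, -0.81, was the lowest of the 30, and its density at 4 h was above control by 0.25.

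At the other end of the body and platform genes, RPS2 (ENSG00000140988), which lines the mRNA entry channel, had the most RNA of all members, at 1495, 1398, 1496, 1778 and 1382 FPKM. Its density was 1111, 1069, 1206, 775 and 589 FPKM, and its ratio of density to RNA was 0.743 in control and 0.427 at 19 h. RPS21 (ENSG00000171858) had RNA of only 168 to 226 FPKM and density of 1863, 1706, 2704, 1303 and 881 FPKM, so its TE change at 19 h (-0.98 ± 0.06) left a ratio of 5.23. RPS21 was chosen for its ratio after the values were seen.

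FAU and RPS27A are made as fusions from which a ubiquitin-like protein or ubiquitin is cut off, releasing the ribosomal protein. FAU (ENSG00000149806) had RNA of 202, 196, 201, 255 and 217 FPKM and density of 504, 447, 545, 452 and 386 FPKM. Its TE was 0.712 of control at 6 h and 0.714 at 19 h, where the log2 change of -0.49 became -0.25 with the length trend removed. RPS27A (ENSG00000143947) had RNA of 396, 351, 380, 463 and 351 FPKM and density of 703, 591, 820, 472 and 250 FPKM. The fusion genes did not move together, since TE of RPS27A fell to 0.401 of control at 19 h, a log2 change of -1.32 ± 0.04 against -0.49 ± 0.05 for FAU.

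RPSA (ENSG00000168028), a platform protein also known as the laminin receptor, had RNA of 67.7, 62.6, 67.3, 80.3 and 57.5 FPKM. Its density was 69.4, 67.7, 53.8, 49.1 and 42.8 FPKM, the lowest of the 30 members in every Ribo-Seq library. It was the shallowest member in Ribo-Seq, with 842 reads in control and 342 at 19 h. Its density change at 4 h was -0.37, where 20 of 30 members and 61.4% of tested genes were above control, and its TE change, -0.75 ± 0.09 at 6 h, stood at -0.46 ± 0.11 at 19 h, the latter -0.27 with the length trend removed. RPSA shares sequence with a separate row named RPSAP58, and reads that matched both equally were not counted under the unique-hit rule, so its level is uncertain. The counts of RPS4X, RPS26, RPS27 and RPS28, which also have near-identical copies, carry the same doubt, and without these and RPSA the member median of TE at 19 h was -1.32.

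Head proteins had TE changes at 19 h from -1.82 to -0.45. RPS18 (ENSG00000231500), which forms a contact with the large subunit, had RNA of 1209, 1082, 1134, 1464 and 1155 FPKM. Its density was 1259, 1013, 1195, 585 and 339 FPKM, and at 19 h its ratio of 0.294 was the lowest of all members. RPS3 (ENSG00000149273), which lines the mRNA entry channel and also binds MDM2, had RNA of 674, 656, 671, 771 and 616 FPKM. Its density of 1536, 1333, 1403, 665 and 437 FPKM was below control at every treated time, and TE at 19 h was 0.311 of control (log2 -1.68 ± 0.03).

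RPS15 (ENSG00000115268), a head protein near the decoding site, had RNA of 545, 540, 576, 609 and 529 FPKM. Its density was 1611, 1610, 2656, 1613 and 1140 FPKM, so that it was 1.65-fold the control at 4 h, was back at the control value at 6 h and was lower at 19 h. The TE change of 0.64 ± 0.03 at 4 h was the highest among the members, and that of -0.45 ± 0.04 at 19 h was the smallest in size, or -0.11 with the length trend removed. RPS28 (ENSG00000233927), which lies near the mRNA exit, had RNA of 63.2, 58.5, 61.3, 68.9 and 70.3 FPKM and density of 458, 431, 451, 315 and 295 FPKM. Its TE was 0.630 of control at 6 h and 0.579 at 19 h.

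RPS19 (ENSG00000105372), the gene most often mutated in Diamond-Blackfan anaemia, was the member whose RNA moved most. RNA was 529, 510, 601, 861 and 873 FPKM, a change of 0.72 ± 0.02 at 19 h, while the next highest was RPS27 at 0.18. Density was 1145, 995, 1443, 890 and 734 FPKM. Its density change at 19 h (-0.64) was thus among the 4 smallest of the members, while its TE change, -1.36 ± 0.03, was close to the member median of -1.32. The lowest RNA changes at 19 h were -0.23 for RPSA and -0.17 for RPS27A, and the range of all members without RPS19 was -0.23 to 0.18.

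**Figure D4:**
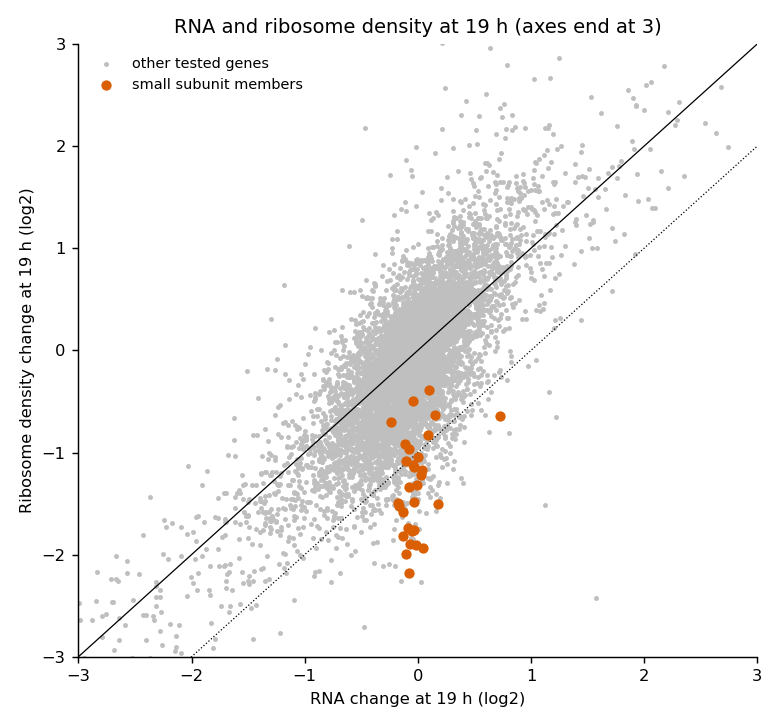
RNA change (x axis, log2) against ribosome density change (y axis, log2) at 19 h for the tested genes in grey and the 30 small subunit genes in orange, on axes that end at 3 in each direction. The solid line marks equal changes and the dotted line a 2-fold TE fall, and members lie in a column near 0 in RNA, with RPS19 apart at 0.72, and reach down to -2.18 in density.

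By position, the 12 head proteins tested of 14 listed had a median TE change at 19 h of -1.34, with 9 lower by 2-fold or more. The 18 body and platform proteins had a median of -1.28, with 13 lower. At 6 h both medians were -0.98, with 6 and 9 lower. Of all 30 members 22 were lower by 2-fold or more at 19 h and 15 at 6 h, and of all tested genes 4.21 and 2.54% were. The 9 members known to bind MDM2 (RPS3, RPS7, RPS14, RPS15, RPS20, RPS25, RPS26, RPS27 and RPS27A) had a median of -1.32 at 19 h, with 7 lower by 2-fold, RPS15 and RPS25 being the others. The 9 tested of 11 listed Diamond-Blackfan anaemia genes had a median of -1.45, with 8 lower. These groups share members, and no difference between them was tested.

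The tract was present in members with large and with small TE changes. FAU, with the longest tract of all (16 bases), was among the 3 smallest changes. RPS4X, with none in its window, had the second lowest, and RPS29, also with none, had -1.36, near the member median of -1.32. The windows follow annotated starts, and the starts used in these cells were not measured here. RPS15 and RPSA each had 7 bases, as did RPS3A, whose change was -1.72. Across 24 members, tract length and TE change at 19 h had a Pearson r of 0.09 and a Spearman rho of -0.08. Transcript length and TE change had r of -0.38 and rho of -0.33 across 30 members, longer rows having the lower values, although over all tested genes the TE change was higher by 0.15 per doubling of length. Genes are not independent replicates, all points share the same 4 libraries, and no test was made.

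**Figure D5:**
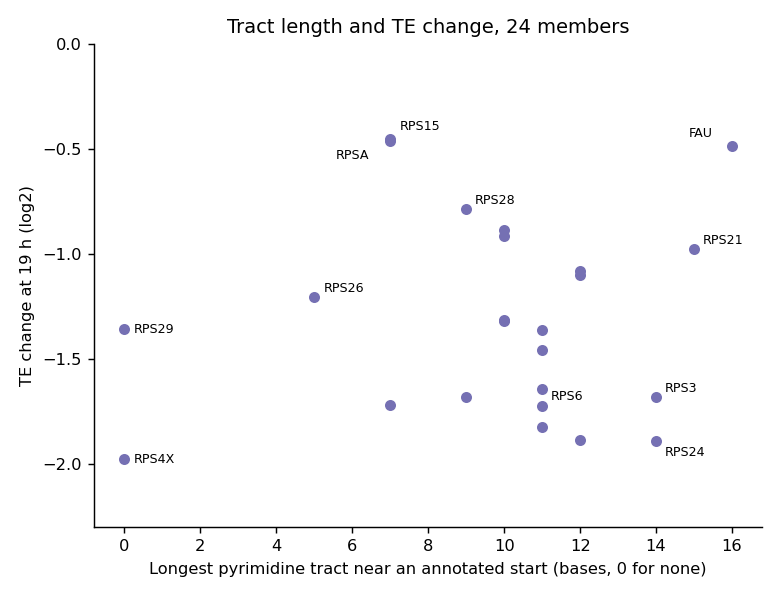
TE change at 19 h (y axis, log2) against the length of the longest tract near an annotated start (x axis, bases, 0 for none) for the 24 small subunit genes with a RefSeq window, 1 point per gene. Genes with tracts of 7 to 16 bases lie between -1.89 and -0.45, and FAU at 16 bases lies near the top. RPS4X with none lies lowest, and RPS29, also with none, lies at -1.36.

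Other genes of the same pathways are given for comparison, without a test of any difference. Over all 7015 tested genes, 498 were lower and 175 higher in RNA by 2-fold or more at 19 h, and 295 were lower and 136 higher in TE. The 47 large subunit proteins had TE medians of -0.15, 0.16, -0.997 and -1.32 at the 4 times, with 36 lower by 2-fold or more at 19 h. GNB2L1, the RACK1 scaffold bound to the head of the 40S subunit, had RNA of 599, 569, 602, 673 and 584 FPKM, density of 867, 833, 896, 631 and 462 FPKM and a TE change of -0.87 at 19 h. The 28 small subunit proteins of the mitochondrial ribosome had a TE median of -0.37 at 19 h, with 1 lower by 2-fold, and an RNA median of -0.18.

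Of 54 listed factors that assemble the 40S subunit, 46 were tested. RNA of these had a median of -0.42 at 19 h, with 42 below 0 and 2 lower by 2-fold, FBL (the rRNA 2′-O-methyltransferase fibrillarin, -1.31) and its partner NOP56 (-1.26). Their TE median was -0.24, with 1, NOL11 (-1.12), lower by 2-fold or more. Density had a median of -0.62, with 12 of 46 lower by 2-fold or more. Of all 7015 tested genes 4013 were below 0 in RNA. Lower by 2-fold or more were 498 in RNA, 1045 in density and 295 in TE. No assembly factor was higher by 2-fold in RNA, density or TE at 19 h, where 2.49, 6.22 and 1.94% of tested genes were.

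Of 32 listed regulators of mTORC1 and of TOP mRNAs, 23 were tested. RNA was higher by 2-fold or more at 19 h in 3, the sestrins SESN1 (2.74) and SESN2 (2.46) and DDIT4 (1.99), which restrain mTORC1, and lower in none. Of all tested genes 2.49% were higher and 7.10% lower. SESN2 RNA was 4.53, 18.0, 37.5, 21.1 and 24.9 FPKM and SESN1 RNA 3.38, 4.33, 20.4, 24.2 and 22.6 FPKM. Both were well above control at 4 h, and SESN2 already at 2 h. Their relation to the TE of the members was not tested. LARP1 RNA was 64.0 FPKM in control and 0.766 of that at 19 h. TE was lower by 2-fold in 3 (EIF4B at -1.70, EIF4E at -1.19 and PRKAA1 at -1.05) and higher in 1 (EIF4G1 at 1.31), with a list median of 0.04. Of all tested genes 4.21% were lower and 1.94% higher in TE by 2-fold or more.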

How the data were processed

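There were 5 RNA-Seq and 5 Ribo-Seq libraries, 1 per group. Per the study's methods and the labels, the authors sequenced 50 nucleotide reads, aligned them with Bowtie to protein-coding transcripts of Ensembl release 65 with a single isoform per gene (the labels name hg19), kept unique hits and deposited the values as FPKM, with 13279 genes in the RNA-Seq and 11337 in the Ribo-Seq table. The methods count Ribo-Seq reads in coding sequence, but the column names say total and the lengths recovered were the same in both tables for 27 of the 29 members with a length from each, so ribosome density here is per transcript length. Cycloheximide was added before lysis. Where several genomic copies exist, the unique-hit rule drops reads that match 2 listed transcripts.

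Because FPKM values are whole reads divided by length and depth, library totals and row lengths were recovered from their spacing, for 11234 of 11258 genes in both tables. The recovery was tested on simulated data. Recovered reads gave counting errors only and entered no test. Values were floored at 1 FPKM, taken as log2 and compared with the control. Tested genes reached 5 FPKM in 1 or more libraries of both assays. Called means 2-fold or more, since 1 library per group allows no test. The alternatives were a pseudocount of 1 FPKM, the 2 h library as baseline, centring on all tested genes, removal of the length trend, members without near-identical copies, a 1.5-fold limit, a cut-off of 1.75 local standard deviations over windows of 301 genes, no filter, and a mean of at least 20 FPKM. Values in all libraries were given for the 5 members with the lowest and the 5 with the highest TE change at 19 h, the 2 highest and 2 lowest in RNA, and RPS6, RPS23, RPS27A, FAU, RPSA and RPS3. Other members named with values were chosen after these were seen. The members and lists were chosen with earlier results of these data known. Protein sequences were not used here. Some members are counted with the rest but not reported here by name. Python 3.11.15, numpy 2.4.6, pandas 2.3.3 and scipy 1.17.1 were used, with matplotlib 3.10.9 for plots.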

Additional observations from a re-analysis of the deposited data

Results flagged for a closer look

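RNA of the small subunit genes lay on opposite sides of control at 2 of the times. The median change was -0.126 at 2 h, with all 30 members below control, and 0.240 at 6 h, with all 30 above it. Both values use the same control library, each time is 1 library, and their difference was not tested. Over all tested genes the medians were -0.05 and -0.002. With 1 library in each group, no library could be compared with others of its own group.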

How the results depend on the processing

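No paired analysis was possible because each group was 1 library and the labels carry no replicate numbers shared between groups, and for the same reason no library could be left out. The pseudocount, and leaving out members with near-identical copies, moved no median by more than the counting interval, and no median past 2-fold changed sign. With the 2 h library as baseline the RNA medians at 4, 6 and 19 h were 0.0947, 0.379 and 0.0928, those of density 0.384, -0.507 and -1.02, and those of TE 0.266, -0.870 and -1.20. With the all-gene median subtracted, RNA was -0.0808 at 2 h, 0.0393 at 4 h and 0.0249 at 19 h, density 0.0066 at 4 h and -1.13 at 19 h, and TE -0.0608 at 4 h. With the length trend removed, RNA was -0.0628 at 2 h and 0.161 at 6 h, density 0.0065, -0.517 and -1.03 at 2, 6 and 19 h, and TE 0.0259, -0.691 and -1.07 at the same times. Members lower in TE numbered 28 at 6 h with a 1.5-fold limit and 13 at 19 h with the local cut-off, where 15 and 22 were lower by 2-fold. The causes of these shifts were not tested beyond the changes of baseline, centre and limit themselves. Of 60 values for single named members at 19 h, none changed sign, and they ranged from -2.08 to -0.11, the value of RPS15 with the length trend removed. Ribo-Seq depth was lowest at 19 h, where RPSA had 342 reads.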
